A study of Mus musculus with 6 samples.

Results

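The collagen and laminin chains of the mouse retina were taken from a table of 25124 gene models as the protein-coding rows with a symbol of the form Col, number, a, number, or Lam, a letter a, b or c, and a number from 1 to 5. This gave 55 genes, 44 collagen chains and 11 laminin chains. The rule itself names no measured value. Whole retinas of C57BL/6J mice aged 4 months were studied by poly-A RNA sequencing in 3 libraries of Elovl2 C234W mice and 3 libraries of wild-type (WT) mice. Elovl2 encodes an elongase that extends long-chain polyunsaturated fatty acids, and C234W names the replacement of a cysteine of that enzyme by tryptophan. Every library of both genotypes came from the same strain and age, and no treatment is named. Zygosity and sex are not given in the sources used here. The C234W libraries are named FS3A, FS3B and FS5A, and the WT libraries WT1A, WT2A and WT2B. The prefix FS is not explained in the labels and was assigned to C234W by elimination, so the direction of each difference rests on it. Nothing in the labels says that the libraries came from separate animals, so p-values measure the spread between these libraries, which may be technical. The names FS3A and FS3B carry the same number, and so do WT2A and WT2B.

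Collagens are proteins of 3 polypeptide chains wound into a triple helix, and each chain has its own gene. Fibrillar collagens pack into the cross-striated fibres of sclera, cartilage and vitreous. Collagen IV forms the sheet-like network of basement membranes, together with laminins, cross-shaped trimers of 1 alpha, 1 beta and 1 gamma chain. In the eye, basement membranes line the vitreal face of the retina (the inner limiting membrane, on which Müller glial endfeet rest), surround the retinal capillaries, and lie beneath the pigment epithelium in Bruch's membrane.

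The genes of several chains lie in pairs or clusters, and promoter windows are shown for these pairs because their chains are assembled into the same trimers and their values are set side by side below. On mm10, Col4a1 (chr8:11198423-11312826, minus strand) and Col4a2 (chr8:11312805-11449287, plus strand) started head to head, and their gene models overlapped by 22 bases. Col4a4 (chr1:82450723-82586849, minus strand) and Col4a3 (chr1:82586921-82722059, plus strand) were head to head with 71 bases between them. Col4a6 and Col4a5 on chromosome X were head to head with 1342 bases between them. Col6a2 and Col6a1 lay on the minus strand of chromosome 10, 85387 bases apart. Collagen VI chains Col6a6, Col6a5 and Col6a4 stood in a row on chromosome 9, with 27984 and 29674 bases between them. RefSeq promoter windows (GRCm38.p6, the assembly of mm10), from 250 bases before to 50 bases after the start, matched 40 of the 55 chains. Those of Col4a1 (chr8:11312777-11313076, minus strand), Col4a2 (chr8:11312555-11312854, plus strand), Col4a4 (chr1:82586800-82587099, minus strand), Col6a1 (chr10:76725995-76726294, minus strand) and Col6a2 (chr10:76623355-76623654, minus strand) follow, 5′ to 3′ on the strand of the gene. Capitals mark GC boxes (GGGCGG) and CCAAT boxes (CCAAT) on either strand.

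Col4a1: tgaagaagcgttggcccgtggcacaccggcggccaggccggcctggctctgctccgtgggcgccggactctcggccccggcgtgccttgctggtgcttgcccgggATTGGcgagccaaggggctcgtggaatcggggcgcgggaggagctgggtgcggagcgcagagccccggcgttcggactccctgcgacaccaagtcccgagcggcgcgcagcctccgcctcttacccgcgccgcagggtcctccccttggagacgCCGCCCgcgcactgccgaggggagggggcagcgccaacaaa

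Col4a2: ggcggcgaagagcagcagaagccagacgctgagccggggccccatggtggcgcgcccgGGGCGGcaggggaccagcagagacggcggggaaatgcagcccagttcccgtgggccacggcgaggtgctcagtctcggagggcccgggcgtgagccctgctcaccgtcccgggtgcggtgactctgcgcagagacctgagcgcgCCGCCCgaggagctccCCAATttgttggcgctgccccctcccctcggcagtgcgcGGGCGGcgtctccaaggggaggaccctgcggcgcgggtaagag

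Col4a4: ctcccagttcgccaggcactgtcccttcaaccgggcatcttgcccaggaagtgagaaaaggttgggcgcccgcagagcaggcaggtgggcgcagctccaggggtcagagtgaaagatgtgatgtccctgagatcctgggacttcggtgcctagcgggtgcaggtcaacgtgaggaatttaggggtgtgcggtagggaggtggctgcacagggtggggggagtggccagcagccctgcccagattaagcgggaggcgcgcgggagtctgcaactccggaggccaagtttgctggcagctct

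Col6a1: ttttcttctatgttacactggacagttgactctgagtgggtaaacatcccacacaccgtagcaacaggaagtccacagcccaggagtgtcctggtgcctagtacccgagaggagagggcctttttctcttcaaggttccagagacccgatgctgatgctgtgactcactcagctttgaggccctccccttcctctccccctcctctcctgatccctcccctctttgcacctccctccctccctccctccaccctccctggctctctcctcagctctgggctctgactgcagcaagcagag

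Col6a2: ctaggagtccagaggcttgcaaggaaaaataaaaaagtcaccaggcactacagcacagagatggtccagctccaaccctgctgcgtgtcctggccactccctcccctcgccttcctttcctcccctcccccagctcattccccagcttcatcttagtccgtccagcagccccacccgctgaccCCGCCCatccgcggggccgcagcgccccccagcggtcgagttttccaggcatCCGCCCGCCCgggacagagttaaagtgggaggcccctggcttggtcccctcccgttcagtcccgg

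The windows of Col4a1 and Col4a2 shared 78 bases, so the GC box CCGCCC near the end of the Col4a1 window is the last GGGCGG of the Col4a2 window read from the other strand. The Col4a4 window also held the start of Col4a3, 72 bases from the start of Col4a4. The Col4a1 window held 1 GC box and 1 CCAAT box, and the Col4a2 window 3 and 1. Col6a2 held 3 GC boxes, a pair of them overlapping, and no CCAAT box, while Col4a4 and Col6a1 held neither motif. Among 32851 windows of the same length, 35.7% held a GC box and 37.4% a CCAAT box. TATAAA (in 13.6% of windows), CACGTG (7.15%) and GTCTAGAC (0.213%) were found on neither strand of the 5 windows.

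Between 15804646 and 19298613 counts fell in genes per C234W library and between 14184093 and 18710329 per WT library, 65.8 to 74.4% of the tags of a library. Elovl2, which carries the substitution, averaged 96.1 ± 17.9 TMM-scaled CPM (counts divided by the size of the library) in C234W and 139 ± 3.01 CPM in WT (SD, n = 3 each), and its adjusted p in edgeR's quasi-likelihood test was 0.101. Summed CPM of 10 rod markers, which define the retina, was between 69600 and 92150 in C234W and between 105200 and 162900 in WT. WT1A stood apart from the other WT libraries. Over genes it correlated with the C234W libraries at 0.964 to 0.972, and with WT2A and WT2B at 0.961 and 0.956. WT2A and WT2B, which share a name number, correlated with each other at 0.983, the highest of any pair. These values are Pearson's r of log2 CPM, computed over genes and so not over independent points. Long transcripts also had higher values in C234W libraries: relative to the mean of the 6 libraries, log2 expression moved by 0.0691 to 0.113 per doubling of transcript length in C234W and by -0.113 to -0.0692 in WT. The collagen and laminin chains are long, so both facts are carried through the results below.

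Transcript levels per length spanned a wide range among the chains. Col6a1, a chain of the beaded filaments of collagen VI, had the highest level, 27.9 ± 9.72 CPM per kb in C234W and 15.6 ± 3.80 in WT. Col23a1, a transmembrane collagen, came next with a mean of 13.5 CPM per kb over the 6 libraries, before Col9a1 (10.2), a chain of the fibril-associated collagen IX, and Col2a1 (10.045), the main fibrillar collagen of cartilage and vitreous. Col4a1, Col20a1, Col4a2 and Col4a3 followed at 6.11 to 7.93 CPM per kb, and the order among these was within the spread of single chains between libraries. Lamc1, the gamma chain of most laminins, was the highest laminin chain at 5.18. Collagen I and III, the usual fibroblast collagens, were near the low end: Col1a1 had 0.525 CPM per kb in C234W and 0.308 in WT, and Col3a1 0.0509 in C234W and 0.0241 in WT. Within collagen VI, Col6a3, the third chain of the classical trimer, stood at 0.0603 CPM per kb in C234W and 0.0243 in WT, at rank 52 of 55 against rank 1 for Col6a1.

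**Figure D1:**
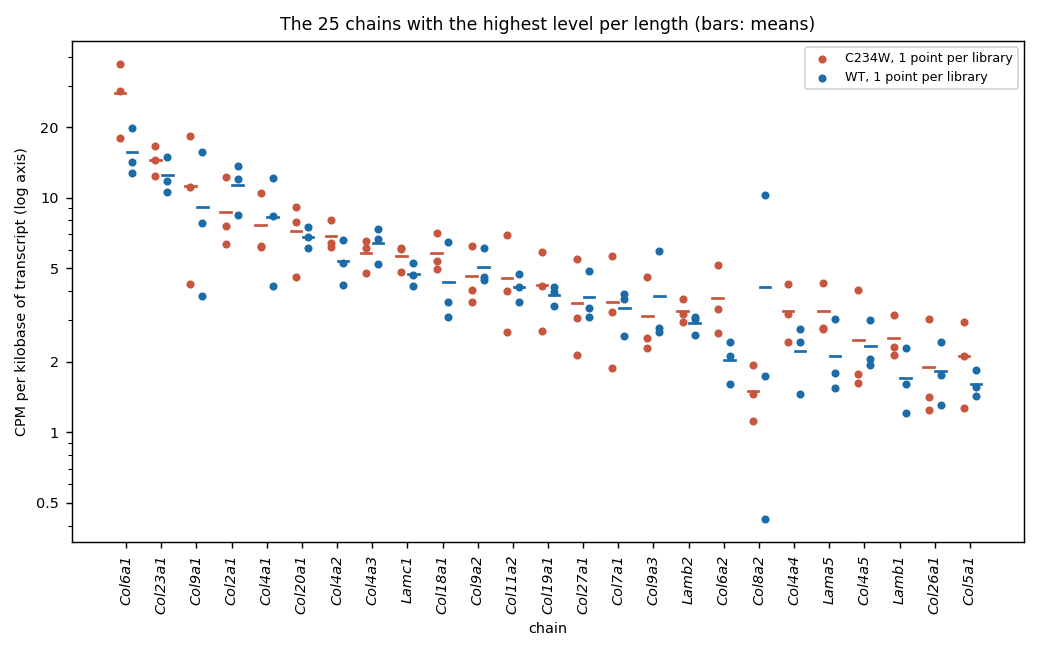
Level per length (TMM-scaled CPM per kb of transcript, log axis) of the 25 chains with the highest level, C234W left of WT; points are libraries and bars are means. Col6a1 leads at 27.9 CPM per kb in C234W and 15.6 in WT, and the points of most neighbouring chains overlap.

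Of the 55 chains, 49 had enough counts to be tested, 45 of them by passing the count filter in every library of both genotypes. Col5a2, Lama2, Lamb3 and Col13a1 passed in every C234W library and not in every WT library. Col3a1, Col6a3, Col6a5, Col10a1, Col14a1 and Col28a1 were not tested, with 8 to 39 counts summed over the C234W libraries and 1 to 12 over the WT libraries. In edgeR's quasi-likelihood test with Benjamini-Hochberg adjustment over 14685 genes, 0 of the 49 chains passed an adjusted p of 0.05, where 1.46% of all tested genes did (0.184% higher and 1.28% lower in C234W). limma-voom also called 0, against 1.63% of all genes (0.232% higher and 1.4% lower). At an unadjusted p under 0.05 in edgeR, 11 chains were higher and 0 lower in C234W, against 11.9% of all genes higher and 13.5% lower. The 3 C234W values lay above all 3 WT values for 10 chains and below them for 0, against 12.6% of all genes above and 16.4% below. Fold changes were positive for 39 chains and negative for 10, and their median log2 fold change was 0.41, against 0.023 over all tested genes. Over the 45 chains that passed the filter in both genotypes, 36 were positive, 9 had an unadjusted p under 0.05, and the median was also 0.41. DESeq2 called 7 chains higher (Col24a1, Col5a3, Col6a1, Col6a4, Lama1, Lama2 and Lamc3) and 0 lower, where it called 5% of all genes higher and 7.69% lower.

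**Figure D2:**
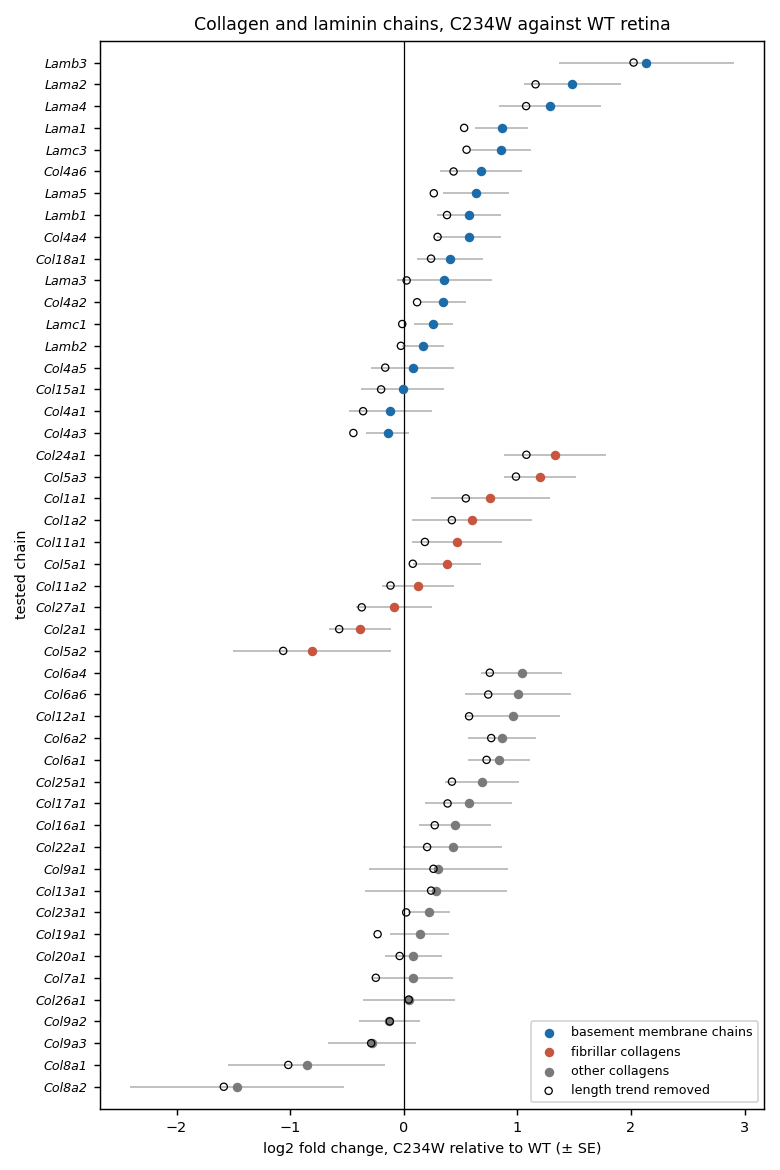
log2 fold change, C234W over WT, of 48 of the 49 tested chains, with bars of 1 SE from edgeR and basement membrane, fibrillar and other chains in turn; open circles are values with the length trend removed. Of the filled points, 38 lie right of 0 and 10 left of it, and all 10 laminin chains drawn are on the right.

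All 11 laminin chains had a positive fold change, with a median log2 fold change of 0.64, 5 had an unadjusted p under 0.05, and 0 passed adjustment. Among all genes 11.9% were higher at that p, and 30.8% of those in the longest of 10 equal bins of transcript length, which held 6 of the 11. Without Lama2 and Lamb3, which passed the count filter in every C234W library only, 9 of 9 were positive and 3 had an unadjusted p under 0.05. Summed over the 11 chains, C234W libraries had 154, 130 and 142 CPM (FS3A, FS3B, FS5A), against 117, 100.1 and 86.6 CPM in WT libraries (WT1A, WT2A, WT2B). The lowest C234W sum was above the highest WT sum, and the means were 142 ± 12.1 CPM in C234W and 101.3 ± 15.4 CPM in WT (SD, n = 3 each).

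The alpha chains carry the domains that bind integrins and dystroglycan and give each laminin its identity. Lama1, an alpha chain of the inner limiting membrane, had 9.20, 8.06 and 10.4 CPM in C234W, against 5.11, 5.49 and 4.56 CPM in WT. The groups did not overlap, and the log2 fold change was 0.86 ± 0.23 (SE), with an adjusted p of 0.076 in edgeR and 0.0153 in DESeq2. Lama2, the alpha chain of muscle and of the basement membrane around brain vessels, had 1.53, 1.94 and 2.56 CPM in C234W, against 0.930, 0.754 and 0.441 CPM in WT. Its groups did not overlap either, at low levels, with a log2 fold change of 1.48 ± 0.43 and an adjusted p of 0.0862 in edgeR. Lama4, the alpha chain of vascular basement membranes, had 3.83, 1.80 and 2.99 CPM in C234W, against 1.20, 1.61 and 0.662 CPM in WT, and here the lowest C234W library was only just above the highest WT library. Lama5, the alpha chain with the highest level, had 49.1, 31.3 and 31.5 CPM in C234W, against 34.3, 20.1 and 17.5 CPM in WT. WT1A lay above FS3B and FS5A, and the log2 fold change of 0.64 ± 0.29 had an adjusted p of 0.205 in edgeR. Lama3, a chain of epithelial laminins, overlapped between the genotypes, with 2.30 to 3.98 CPM in C234W and 1.47 to 3.65 CPM in WT.

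Beta and gamma chains were less uniform. Lamb1, the widespread beta chain, had 12.3, 18.1 and 13.3 CPM in C234W, against 13.2, 9.20 and 6.92 CPM in WT, with overlap at WT1A. Lamb2, the beta chain of the inner limiting membrane and of synapses, had 17.8, 16.5 and 20.6 CPM in C234W, against 17.3, 14.5 and 16.9 CPM in WT, and its log2 fold change of 0.17 ± 0.19 was smaller than its error. Lamb3, which pairs with Lama3 in epithelial laminin, was near the detection limit, with 1.64, 0.854 and 1.59 CPM in C234W, against 0.199, 0.646 and 0 CPM in WT. The WT values of Lamb3 rest on 3, 12 and 0 counts. Lamc1 had 46.3, 36.5 and 46.0 CPM in C234W, against 35.6, 39.99 and 31.8 CPM in WT, a log2 fold change of 0.26 ± 0.17 with overlapping groups. Lamc3, a gamma chain that in mouse retina is needed together with Lamb2 for the inner limiting membrane, had 6.68, 9.20 and 9.999 CPM in C234W, against 4.78, 4.09 and 5.44 CPM in WT. Its groups did not overlap, and the log2 fold change was 0.86 ± 0.26 (adjusted p 0.0973 in edgeR and 0.0336 in DESeq2).

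In bulk tissue, more cells of a type and more RNA per cell cannot be told apart. The 12 endothelial markers summed to 326, 345 and 295 CPM in C234W, against 207, 221 and 240 CPM in WT, with no overlap. Flt1 and Kdr made up most of each sum, and they lie in bins 10 and 9, the longest of 10 equal bins of transcript length. Of the 12, 4 were higher at an unadjusted p under 0.05 in edgeR, against 11.9% of all genes, and 0 passed adjustment. Log2 fold changes ran from -0.26 for Egfl7 to 1.54 for Erg. They were positive for 11 of the 12 and above the median of genes of like length for 10. The 10 pericyte and smooth muscle markers summed to 109 to 145 CPM in C234W and 58.3 to 124 CPM in WT, with overlap. Their part in the laminin values was not tested. The 11 Müller glia markers summed to 4589 to 6489 CPM in C234W and 6051 to 7884 CPM in WT. The 6 astrocyte markers summed to 282, 136 and 56.4 CPM in C234W, against 81.9, 61.4 and 51.3 CPM in WT, with overlap. Gfap alone had 248, 99.4 and 26.5 CPM in C234W, against 46.8, 25.3 and 20.4 CPM in WT. Of 5 tested astrocyte markers, 2 had positive fold changes. The 10 pigment epithelium markers summed to 415 to 508 CPM in C234W and 843 to 1177 CPM in WT. Rlbp1, which Müller glia also express, made up most of the sum in every library but WT1A, where it had 452 CPM. The other 9 summed to 102, 160.1 and 159.9 CPM in C234W, against 725, 169 and 69.4 CPM in WT, which overlapped, with WT1A alone high.

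Collagen IV chains differed among themselves. Of 6 chains, 4 had positive and 2 negative fold changes, 0 had an unadjusted p under 0.05, and the median log2 fold change was 0.21. Col4a1, which with Col4a2 makes the trimer found in nearly all basement membranes, had 68.8, 40.3 and 40.8 CPM in C234W, against 27.6, 79.9 and 54.9 CPM in WT. Both its lowest and its highest value were in WT libraries, and its log2 fold change of -0.12 ± 0.36 was smaller than its error. Col4a2 had 51.3, 40.9 and 39.3 CPM in C234W, against 27.3, 42.2 and 33.7 CPM in WT, a log2 fold change of 0.35 ± 0.20. WT1A was the lowest library for both chains.

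Col4a3, Col4a4 and Col4a5 form the trimer of glomerular and some ocular basement membranes. Col4a3 had 52.2, 41.0 and 56.0 CPM in C234W, against 57.0, 62.7 and 44.6 CPM in WT. Col4a4 had 33.1, 18.9 and 24.8 CPM in C234W, against 18.8, 21.3 and 11.3 CPM in WT. Both overlapped between genotypes, with log2 fold changes of -0.14 ± 0.19 for Col4a3 and 0.57 ± 0.29 for Col4a4. Col4a5 had 10.4, 11.4 and 26.0 CPM in C234W, against 12.5, 13.2 and 19.4 CPM in WT, with the highest value in FS5A. Col4a6, which joins Col4a5 in other basement membranes, had 3.83, 3.60 and 5.12 CPM in C234W, against 3.45, 1.61 and 2.80 CPM in WT, without overlap and with an adjusted p of 0.263 in edgeR.

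Ratios between chains whose genes are neighbours were compared per length, within each library, which removes the scaling between libraries. The Col4a4 to Col4a3 ratio was 0.699, 0.508 and 0.488 in C234W, against 0.364, 0.375 and 0.280 in WT. The groups did not overlap, and the two-sided exact permutation p was 0.1, the smallest that 3 against 3 libraries can give, or 0.4 adjusted over the 4 ratios compared. The Col4a2 to Col4a1 ratio was 0.765, 1.04 and 0.985 in C234W, against 1.01, 0.541 and 0.629 in WT, with overlap at WT1A (exact permutation p 0.3). The Col4a6 to Col4a5 ratio was 0.359, 0.309 and 0.192 in C234W, against 0.270, 0.119 and 0.140 in WT, which also overlapped (exact permutation p 0.2). Col6a2 to Col6a1 stayed between 0.118 and 0.147 in C234W and between 0.121 and 0.149 in WT (exact permutation p 1). This last pair was added to the ratios after its values had been seen.

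**Figure D3:**
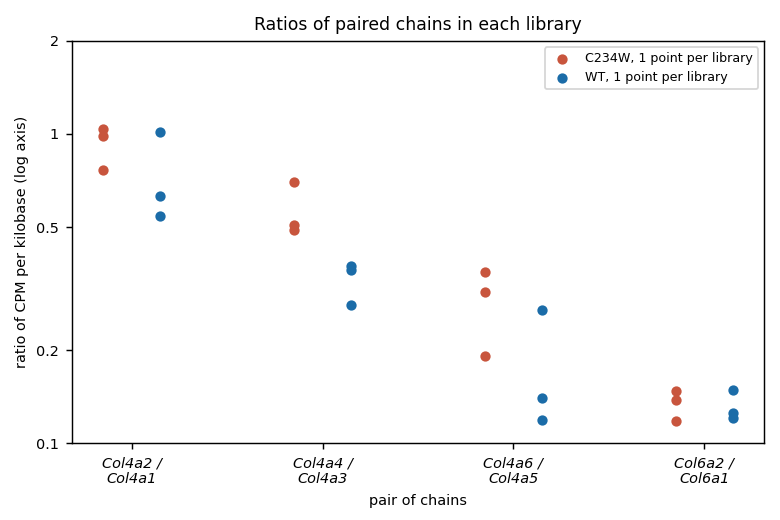
Ratio of levels per length between chains of neighbouring genes in each library, C234W left of WT. Col4a4 to Col4a3 lies between 0.488 and 0.699 in C234W and between 0.280 and 0.375 in WT, whereas Col6a2 to Col6a1 overlaps.

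Multiplexin collagens sit on the stromal side of basement membranes. Col18a1, whose C-terminal fragment is endostatin, had 35.5, 26.9 and 24.8 CPM in C234W, against 32.3, 15.5 and 17.9 CPM in WT. WT1A again lay among the C234W libraries, and the log2 fold change was 0.41 ± 0.29. Col15a1 had 3.04 to 6.10 CPM in C234W and 2.92 to 5.60 CPM in WT. Across the 19 tested basement membrane chains (collagen IV, multiplexins and laminins), 16 fold changes were positive and 3 negative, 5 had an unadjusted p under 0.05, 6 did not overlap, and the median log2 fold change was 0.48. The corresponding shares of all genes higher in C234W were 11.9% and 12.6%, and 30.8% and 31.1% in the longest bin of transcript length. Lama2 and Lamb3, which passed the count filter in every C234W library only, are among both the 5 and the 6.

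Of 11 fibrillar chains, 10 were tested: 7 had positive and 3 negative fold changes, 2 had an unadjusted p under 0.05, both higher, and 0 passed adjustment. Their median log2 fold change was 0.43. Among all genes 11.9% were higher at an unadjusted p under 0.05. The share was 18.9% and 30.8% in bins 9 and 10, the longest 2 of 10 equal bins of transcript length, which held all 10 tested fibrillar chains. Col5a3, a minor chain of collagen V, which sets the diameter of fibrils, had 7.23, 5.12 and 8.29 CPM in C234W, against 3.85, 2.75 and 2.35 CPM in WT. All 3 C234W libraries were higher, and its log2 fold change of 1.20 ± 0.32 had the lowest adjusted p of the chains, 0.0716 in edgeR and 0.00899 in DESeq2. Col24a1, a fibrillar chain known from developing bone and cornea, had 3.83, 3.13 and 6.34 CPM in C234W, against 1.73, 2.58 and 0.883 CPM in WT. It did not overlap either, with a log2 fold change of 1.33 ± 0.45 and an adjusted p of 0.12 in edgeR. Col2a1, the fibrillar chain with the highest level, had 38.3, 32.3 and 62.0 CPM in C234W, against 42.8, 69.4 and 61.1 CPM in WT, a log2 fold change of -0.39 ± 0.27. The summed level of the fibrillar chains was 133, 97.3 and 221 CPM in C234W, against 119, 179 and 144 CPM in WT, so the highest and the lowest sum were both in C234W.

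Fibril-associated collagens decorate the surface of fibrils. Of 9 chains, 8 were tested, 6 with positive fold changes. Col12a1, which links fibrils to other matrix, had 18.4, 7.26 and 14.0 CPM in C234W, against 9.70, 7.05 and 3.60 CPM in WT (log2 fold change 0.96 ± 0.42, adjusted p 0.195 in edgeR). Col9a1 had 13.1, 34.1 and 56.0 CPM in C234W, against 11.7, 23.9 and 48.1 CPM in WT, a spread of over 4-fold within each genotype. Col16a1 had 2.703 to 4.27 CPM in C234W and 2.13 to 2.91 CPM in WT.

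Collagen VI forms beaded filaments next to basement membranes. All 4 tested chains had positive fold changes, with a median log2 fold change of 0.93, 3 had an unadjusted p under 0.05, against 11.9% of all genes, and 0 passed adjustment. Without FS5A none of these 3 kept an unadjusted p under 0.05 in edgeR, and without WT1A only Col6a1 did. Col6a3, not tested with all 6 libraries, was higher at that p without FS5A. It had 16.5 and 15 counts in FS3A and FS3B, against 5, 3 and 4 in WT1A, WT2A and WT2B. In these fits the medians, over 5 tested chains, were 0.71 and 0.72. Col6a1 had 112, 70.7 and 147 CPM in C234W, against 50.1, 78.4 and 55.8 CPM in WT. FS3B lay below WT2A, so the groups overlapped; the log2 fold change was 0.84 ± 0.28, with an adjusted p of 0.115 in edgeR and 0.037 in DESeq2. Col6a2 had 12.4, 9.77 and 19.1 CPM in C234W, against 5.91, 8.94 and 7.80 CPM in WT, without overlap. Col6a4, a chain of the second collagen VI gene group, had 7.12, 4.65 and 9.76 CPM in C234W, against 2.52, 3.39 and 4.56 CPM in WT. FS3B stood barely above WT2B, and the log2 fold change was 1.04 ± 0.36 (adjusted p 0.126 in edgeR). In each of the 4 chains FS5A was the highest library and WT1A the lowest.

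Fibroblast markers of sclera, choroid and meninges were scarce beside these collagens. The 10 genes summed to 8.60, 14.3 and 8.78 CPM in C234W, against 12.7, 8.18 and 6.11 CPM in WT. Most of each sum came from Pdgfra, with 5.26, 11.2 and 6.22 CPM in C234W, against 7.24, 5.60 and 3.53 CPM in WT. Only 3 of the 10 had enough counts to be tested, Pdgfra, Dcn and Clec3b. Dcn averaged 1.35 CPM in C234W and 1.72 CPM in WT. Twist2 was at 0 in all 6 libraries. Lum, a corneal and scleral proteoglycan, was at 0 in every library but WT1A, which had 0.332 CPM. The part of fibroblasts in the collagen values was not tested. Cornea and conjunctiva markers summed to 4.46 to 9.999 CPM in C234W and 9.05 to 19.5 CPM in WT. Lens markers summed to 1.47 to 2.74 CPM in C234W and 3.72 to 4.47 CPM in WT. The fibroblast sums overlapped between genotypes, and the lens sums were lower in each C234W library. Only 1 of the 10 lens markers had enough counts to be tested, Crybb3, with 0.759 to 1.64 CPM in C234W and 1.86 to 2.91 CPM in WT. It lies in the shortest of 10 equal bins of transcript length, where 44.1% of all genes were lower in C234W without overlap.

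The short-chain collagens VIII, of Bruch's and Descemet's membranes, ran the other way in the means, and this rested on WT1A. Col8a1 had 6.13, 6.69 and 4.76 CPM in C234W, against 24.3, 4.58 and 3.02 CPM in WT. Col8a2 had 4.82, 6.31 and 8.35 CPM in C234W, against 44.4, 7.54 and 1.84 CPM in WT. WT1A alone was far above the other 5 libraries, and without it the log2 fold changes of -0.86 and -1.46 became 0.624 and 0.45. The pigment epithelium gene Rpe65 had 10.2, 14.5 and 11.5 CPM in C234W, against 60.6, 14.3 and 7.28 CPM in WT, high in the same library, and its part was not tested.

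The 4 transmembrane collagens had positive fold changes, with a median log2 fold change of 0.43 and 0 at an unadjusted p under 0.05. Col23a1 had 70.0, 81.7 and 94.0 CPM in C234W, against 59.8, 66.2 and 84.3 CPM in WT, and Col25a1, a neuronal collagen, had 18.9, 11.6 and 14.9 CPM in C234W, against 7.70, 14.0 and 6.40 CPM in WT. Both overlapped. Col17a1, a hemidesmosomal collagen, had 4.74 to 8.76 CPM in C234W and 3.07 to 7.04 CPM in WT. Among the remaining collagens, Col7a1, which forms anchoring fibrils, had 17.2 to 51.5 CPM in C234W and 23.5 to 35.6 CPM in WT, and Col26a1 had 3.46 to 8.47 CPM in C234W and 3.66 to 6.77 CPM in WT.

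FS5A and WT1A weighed on these values. Relative to the mean of the chain over the 6 libraries, the median chain stood at 1.06, 0.872 and 1.45 in FS3A, FS3B and FS5A, against 0.806, 0.855 and 0.769 in WT1A, WT2A and WT2B. FS5A was the highest library for 29 of the 49 tested chains, against 17.2% of all tested genes and 27.7% of those in the longest 2 of 10 equal bins of transcript length. This held for 25 of 38 collagen chains, 8 of 10 fibrillar chains among them, and for 4 of 11 laminin chains. Without FS5A the median log2 fold change was -0.04 for collagen chains, 19 of 39 being positive, and -0.05 for fibrillar chains, 4 of 10 being positive. For laminin chains it was 0.74 without FS5A, with 11 of 11 positive and 4 at an unadjusted p under 0.05. Leaving out other libraries moved the laminin median between 0.46 (without WT2B) and 0.87 (without WT1A), and without FS3A 10 of 11 were positive and 3 had an unadjusted p under 0.05. Of the 9 laminin chains that passed the count filter in both genotypes, 9 were positive without FS5A and 8 without FS3A. At that p there were 3 and 2 of them. With all 6 libraries 11.9% of all genes were higher at that p, and the share in these smaller fits is not given here. For basement membrane chains together the median was 0.51 without FS5A, 0.33 without WT2B, 0.35 without FS3A and 0.80 without WT1A. Without WT1A, 5 of 50 tested chains passed the threshold in edgeR (Col18a1, Col5a3, Lama1, Lama2 and Lama5, all higher). In that fit 18.5% of all genes were called, 9.13% higher and 9.39% lower. Its only WT libraries were WT2A and WT2B, which share a name number and were the most alike pair. Whether they came from separate animals is not given, so the spread behind these calls may be technical.

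**Figure D4:**
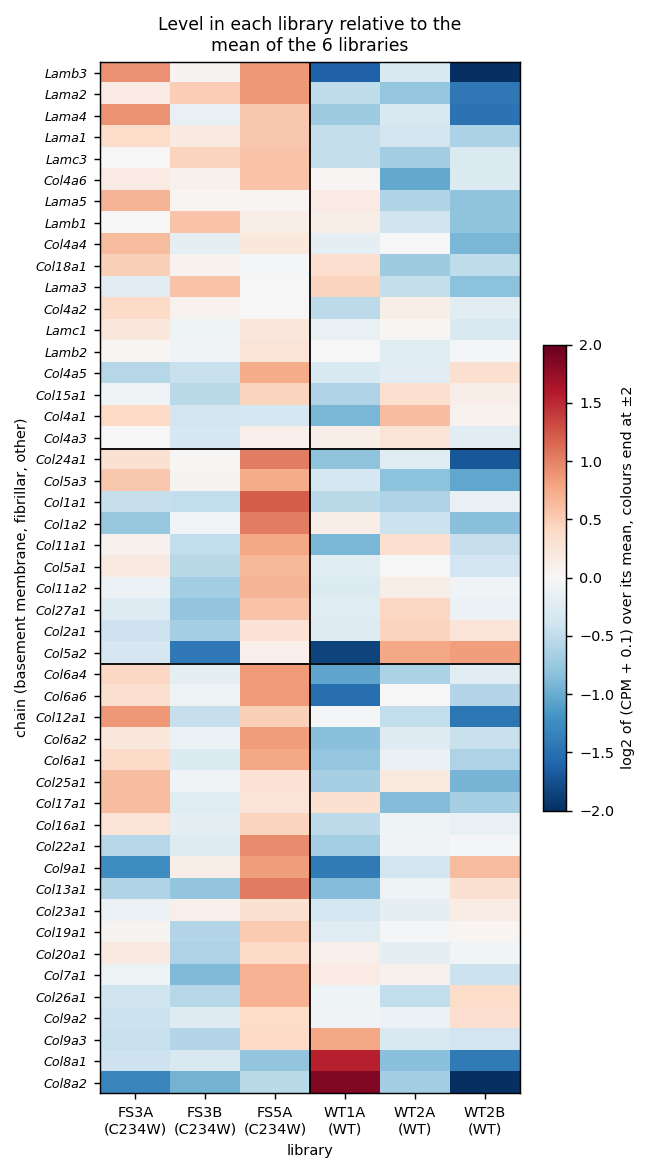
Colour gives the level of 48 tested chains (rows, by group) in each library (columns, C234W left of WT) relative to its mean over the 6 libraries, as log2 of CPM + 0.1. On the linear scale, over all tested chains, fibrillar chains have a median of 1.64 in FS5A and at most 1.04 in every other library, whereas laminin chains lie between 1.04 and 1.19 in the 3 C234W libraries and between 0.572 and 0.770 in WT.

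Genes of like transcript length were the other comparison. The tested chains had a median length of 6062 bases, against 3020 over all tested genes. With tested genes divided into 10 equal bins of length, the median fold change of a bin (log2) was lowest in bin 1, the shortest, at -0.43, and highest in bin 10, at 0.34. Bin 9 (4985 to 6532 bases) held 18 chains with a median log2 fold change of 0.42, against 0.21 for all its genes. There, 15 chains were positive, 2 did not overlap and 2 had an unadjusted p under 0.05 in the higher direction, against 71.2%, 20% and 18.9% of all genes of that bin. Bin 10 (from 6535 bases) held 21 chains with a median of 0.57, against 0.34 for all its genes. There 17 were positive, 6 did not overlap and 6 had an unadjusted p under 0.05, against 81%, 31.1% and 30.8% of all genes. The positive chains were a larger share than the positive genes in bin 9 and about the same share in bin 10. In bin 10 the chains that did not overlap, or had an unadjusted p under 0.05, were close to the share of genes, and these differences were not tested. DESeq2 called 1 chain of bin 9 and 5 of bin 10 higher, against 8.15% and 15.1% of genes. Over all 49 chains, 32 had a fold change above the median of their own bin and the median difference was 0.21 on the log2 scale, 0.37 for laminin, 0.23 for basement membrane and 0.08 for fibrillar chains.

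Removing the trend of each library on transcript length brought the median log2 fold change of the chains to 0.24, with 32 positive and 17 negative, and of all genes to 0.0032. At an unadjusted p under 0.05 edgeR then had 8 chains higher and 1 lower, against 8.32% and 11% of all genes, and 0 passed adjustment. The 8 were Col24a1, Col5a3, Col6a1, Col6a2, Lama1, Lama2, Lama4 and Lamb3, and the lower one was Col4a3. Laminin chains then had a median of 0.38 with 9 of 11 positive, collagen VI 0.75 with 4 of 4 positive, fibrillar chains 0.13 and collagen IV -0.02. Without Lama2 and Lamb3, which passed the count filter in every C234W library only, the laminin median was 0.31 with 7 of 9 positive. Of those 9, 2 had an unadjusted p under 0.05 in edgeR, Lama1 and Lama4.

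**Figure D5:**
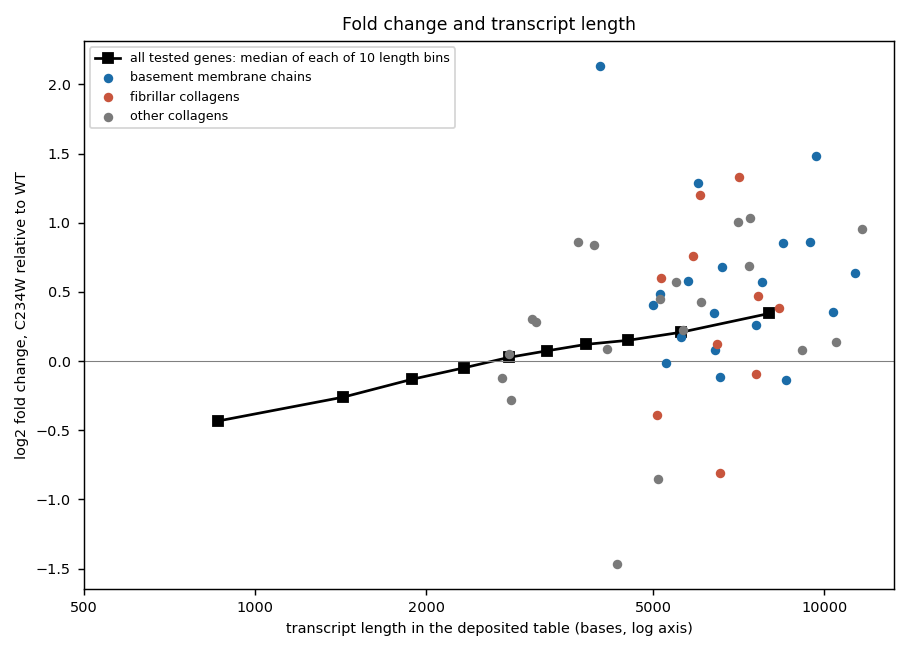
log2 fold change, C234W over WT, against transcript length (bases, log axis) for the tested chains, with the median of all tested genes in each of 10 length bins. The gene medians run from -0.43 to 0.34, and 32 of 49 chains lie above the median of their bin.

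Genes that work with the chains were read from 5 lists, and edgeR called 0 genes of any of them at an adjusted p under 0.05. Their counts stand beside 52% of all genes with a positive fold change, 11.9% higher at an unadjusted p under 0.05 and 5% called higher by DESeq2. Fold changes above the median of genes of like length were found for 12 of 17 other basement membrane proteins, 20 of 27 synthesis genes, 14 of 16 receptors, 11 of 17 proteases and inhibitors and 5 of 12 proteoglycans and fibril-binding proteins. Of 17 tested other basement membrane proteins (nidogens, perlecan, agrin and the like), 14 had positive fold changes and 6 an unadjusted p under 0.05, all higher; DESeq2 called 3. Pxdn, the peroxidase that forms the sulfilimine cross-links of collagen IV, averaged 23.1 ± 5.05 CPM in C234W and 11.5 ± 2.44 CPM in WT (adjusted p 0.0618 in edgeR). Of 27 genes of collagen synthesis and cross-linking, 8 were higher and 1 lower at an unadjusted p under 0.05. P4ha1, a catalytic subunit of prolyl 4-hydroxylase, which stabilises the triple helix, averaged 41.7 ± 7.04 CPM in C234W and 24.1 ± 2.47 CPM in WT (adjusted p 0.0576 in edgeR). All 16 tested collagen and laminin receptors had positive fold changes, 5 with an unadjusted p under 0.05. Itga3, the alpha subunit of a laminin-binding integrin, averaged 26.6 ± 7.66 CPM in C234W and 14.4 ± 1.04 CPM in WT (adjusted p 0.0692 in edgeR). These 3 genes, each named for the smallest p of its list, did not overlap between genotypes (n = 3 each). Higher in C234W without overlap were 7 of 17 other basement membrane proteins, 9 of 27 synthesis genes and 6 of 16 receptors, against 12.6% of all genes. In the other direction there was 1 synthesis gene. The median lengths of these lists, 4861, 3231 and 4920 bases, lie in bins 8, 6 and 8 of transcript length. There 16.2%, 13.4% and 16.2% of all genes were higher without overlap, and 16.5%, 11.7% and 16.5% at an unadjusted p under 0.05 in edgeR. In bin 10, which holds Pxdn, these shares were 31.1% and 30.8%.

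Of 17 matrix proteases and inhibitors, 5 were higher and 0 lower at an unadjusted p under 0.05. Adamts5, a protease that cleaves large proteoglycans, had 44.8, 29.2 and 13.5 CPM in C234W, against 12.4, 10.2 and 7.36 CPM in WT (adjusted p 0.0695 in edgeR). The lowest C234W library was just above the highest WT library. Of 12 small leucine-rich proteoglycans and fibril-binding proteins, 6 had positive fold changes and 3 an unadjusted p under 0.05. Fn1, fibronectin, averaged 38.5 ± 5.51 CPM in C234W and 21.1 ± 4.25 CPM in WT, again without overlap (adjusted p 0.0583 in edgeR, n = 3 each). Adamts5 and Fn1 were also named for the smallest p of their lists. Higher in C234W without overlap were 4 of these 17 genes and 2 of these 12, against 12.6% of all genes. Of the 12, 1 was lower without overlap. The median lengths of these lists, 4295 and 3358 bases, lie in bins 8 and 6 of transcript length. There 16.2% and 13.4% of all genes were higher without overlap.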

How the data were processed

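Poly-A RNA of whole retinas was sequenced from strand-specific TruSeq libraries, per the labels' protocols. The authors aligned reads with STAR to mm10 and used HOMER to count unique exonic tags on one strand, taking 1 isoform per gene, per the series' design text; the submitters' processing notes give STAR 2.7.8a. The authors deposited unnormalized estimated counts for each gene (per the file headers), of which 28.3 to 32.1% per library were not whole. Unique tags lose reads of near-identical copies.

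Counts were rounded, filtered with filterByExpr (minimum count 10), scaled by TMM and tested with edgeR (4.0.16, R 4.3.3) by quasi-likelihood with robust=TRUE, without covariates; the threshold was a Benjamini-Hochberg adjusted p of 0.05. CPM are TMM-scaled; CPM per kb divide by the deposited transcript length. The SE of a log2 fold change is its size divided by the square root of F. Alternatives were DESeq2 (1.42.0), limma-voom (3.58.1), RLE and total-count scaling, other filters, unrounded counts, an adjusted p of 0.01, an offset from a loess of expression on length (span 0.3 or 0.5), summing libraries of the same name number, and leaving out each library. No 2 libraries were duplicates: the smallest chi-square per degree of freedom was 8.92, for WT2A against WT2B. Every other pair had 26.4 (FS3A against FS5A) or more. The scripts were tested on simulated data.

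Members and lists were chosen with earlier results of these data known. Named were, per class, the 2 tested chains with the smallest p and the one with the highest level per kb, the head-to-head pairs, and per partner list the gene with the smallest p. Lama3, Lama4, Col6a2, Col6a3, Col1a1, Col3a1, Lum, Rpe65 and other genes outside this rule were named after their values were seen. Values of 1 tested chain are not reported here on their own; it is counted in sums and totals.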

Additional observations from a re-analysis of the deposited data

How the results depend on the processing

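The median log2 fold change of the tested chains stayed positive under every alternative run, from 0.161 without FS5A to 0.616 without FS3B. The number of chains past the threshold was 0 in edgeR, 7 with DESeq2, and 0 to 5 on leaving out each library; 11 had an unadjusted p under 0.05 in edgeR and 0 passed in limma-voom. For all genes the count of 215 (3729 at an unadjusted p under 0.05) became 0 with RLE scaling, total-count scaling, an adjusted p under 0.01, either length offset or summed libraries, 353 without a filter, 1754 with DESeq2, and 0 to 2775 on leaving out each library, 2775 being without WT1A. The 2775 came from a fit whose only WT libraries, WT2A and WT2B, share a name number. With all 6 libraries, the smallest adjusted p over all genes in edgeR was 0.0484. Total-count scaling moved the median of all genes to 0.20. It turned the log2 fold change of Col15a1 to 0.143, of Col4a1 to 0.0321 and of Col4a3 to 0.0359. limma-voom turned Col26a1 to -0.029, Col4a5 to -0.0316 and Col7a1 to -0.0693. The length offset turned Col4a5 to -0.164, Col7a1 to -0.246, Lamb2 to -0.0257 and Lamc1 to -0.014 (span 0.3), or to -0.164, -0.246, -0.027 and -0.0137 (span 0.5). Summed libraries turned Col15a1 to 0.21. Leaving out each library gave -0.299 to 0.207 for Col15a1, -0.428 to 0.281 for Col4a1, -0.465 to 0.313 for Col4a5, -0.402 to 0.391 for Col7a1, -0.462 to 0.302 for Col26a1, -0.236 to 0.948 for Col9a1, -1.29 to 0.624 for Col8a1 and -1.99 to 0.45 for Col8a2. The cause was not tested. No paired analysis was possible because the columns carry no replicate number of the labels. The 6 chains that were not tested had too few counts for the filter.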

Other observations

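Besides length, exon number and base composition set the chains apart from the median tested gene. In the GENCODE M21 annotation, matched for all 55 chains and 90.3% of tested genes, the chains had a median of 45 exons, from 3 to 118, against 8 exons for tested genes. Their median GC content was 55.1%, from 46.8 to 64.3%, against 50.7%. Col9a1 and Col19a1, tail to tail with 4944 bases between them on chromosome 1, differed in their spread: Col19a1 had 44.0, 28.3 and 61.5 CPM in C234W, against 36.1, 41.7 and 43.6 CPM in WT, where Col9a1 varied over 4-fold within each genotype. Col3a1 and Col5a2, also tail to tail on that chromosome with 24624 bases between them, were both low; Col5a2 had 1.31, 0.569 and 1.83 CPM in C234W, against 0.398, 2.96 and 3.09 CPM in WT. These genes were chosen after their values were seen.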
